A study of Mus musculus with 12 samples.

Results

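The antioxidant enzymes that remove superoxide and peroxides were followed here as 10 genes, namely Sod1, Sod2, Sod3, Cat, Gpx1, Gpx3, Gpx4, Prdx1, Prdx5 and Prdx6. They were chosen by name, all of their transcripts listed in the table of protein-coding RNAs were used, and the transcripts of a gene were summed. The 10 genes were found among 14188 genes of that table, and they had 20 of its 29883 transcripts.

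The study asked how Pien Tze Huang (PZH), a traditional Chinese medicine, changes the liver transcriptome of mice with hepatic fibrosis. Liver RNA was sequenced from 12 mice, 6 per group. Every mouse of both groups received intraperitoneal CCl4, a hepatotoxin that hepatocytes convert to free radicals, so no healthy liver entered the comparison. The PZH group was given PZH by gavage each day and the control group was given water in the same way, and livers were taken in the eighth week. The label gives the strain as C57BL/8, whereas the study's methods give male C57BL/6J mice that were 6 weeks old at the start. Expression was given as FPKM, fragments per kilobase of transcript, scaled to the mapped fragments of the library. Depth, estimated from the spacing of low FPKM values, was about 27590000 to 42767000 fragments with PZH and 26792000 to 35578000 without it, with the highest control value, that of Control 4, the least certain.

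Superoxide dismutases turn superoxide into hydrogen peroxide, and catalase, glutathione peroxidases and peroxiredoxins then reduce peroxides. Catalase works in peroxisomes and needs no reducing substrate such as glutathione or thioredoxin, while glutathione peroxidases draw on glutathione and most peroxiredoxins on thioredoxin, both kept reduced with NADPH. The liver is among the tissues richest in catalase, and its hepatocytes hold many peroxisomes.

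Cat and Gpx1 were higher and Prdx1 and Prdx5 were lower in the PZH group, while the 3 superoxide dismutases differed by less than the spread between mice. Cat was the only member whose 2 groups shared no values, with a mean FPKM of 706 in PZH mice and 421 in control mice. A gene was called when the Benjamini-Hochberg adjusted p of limma over all genes was under 0.05. On this criterion 4 of 10 members were called, beside 44.8% of all genes. Without PZH 4 the called members came to 1, which was Cat, beside 5597 of 14188 genes, and without Control 5 again to Cat alone, beside 5630 genes. In the higher direction there were 2 members beside 12.7% of genes, and in the lower direction 2 members beside 32.1%. None of the members reached a 2-fold change with an unadjusted P under 0.05 by limma, a criterion met by 4.02% of genes. The study used these cutoffs on single transcripts, whereas they are applied here to gene sums. For 1 member the groups did not overlap, beside 24.3% of genes. All 10 members had a mean FPKM of at least 1. These shares do not set the members apart from the other genes, so the results are given gene by gene. The p-values measure only the spread between these mice.

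More genes were lower than higher in the deposited values, since 28.3% of the called genes were higher in the PZH group. The median log2 fold change was -0.11 for all genes, -0.17 for genes whose mean FPKM was 1 or more and 0.05 for the members. Scaling each mouse by its median ratio to the other libraries moved the median of all genes by 0.11 to near 0, and 50.6% of the called genes were then higher. A median near 0 follows from how this scaling is done, and a more even split of calls goes with it, so neither is a finding about the mice. On that scale 3 members were higher (Cat, Gpx1 and Gpx3), beside 19.8% of genes, and 0 members were lower by limma, also at an unadjusted P under 0.05, beside 19.3%. Changes are therefore also given relative to the median of all genes. Alb, the albumin gene and the most abundant hepatocyte marker, made up 11.2% ± 1.11 (SD, n = 6) of the summed FPKM in PZH mice and 7.26% ± 1.18 (SD, n = 6) in control mice. The part of this difference in the scaling was not tested.

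The library of mouse PZH 1 stood apart from the rest. It had the highest estimated depth, and 6.49% of 10948 genes with a mean FPKM of at least 1 had an outlying value in it, against 0.548% to 1.92% in the other 11 mice. Its mean correlation with the other PZH mice across genes was 0.962, the lowest of the 12. Without PZH 1 the members called by limma changed. Cat stayed higher (0.80, adjusted p = 0.000505) and Prdx1 and Prdx5 stayed lower. Gpx1 was no longer called (0.28, adjusted p = 0.0548). Sod3 was then called higher (0.24, adjusted p = 0.0242) and Gpx4 lower (-0.22, adjusted p = 0.044).

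Sod3 had the lowest level of the enzymes, while Cat, Gpx1, Prdx1 and Sod1 had the highest. By mean FPKM, a scale corrected for transcript length, the control group was led by Prdx1 (432), Cat (421) and Gpx1 (379), and the ranges of neighbours in this order overlapped. In the PZH group the order was Cat (706), Gpx1 (462), Prdx1 (341) and Sod1 (314), again with overlap between neighbours. Below these came Gpx4, Prdx6, Prdx5, Sod2, Gpx3 and Sod3 in both groups. In this lower part Prdx6 and Prdx5 overlapped in the control group, and Sod2 and Gpx3 in the PZH group. The FPKM of all 10 members summed to 2121 ± 171 (SD, n = 6) in PZH mice and to 1858 ± 151 (SD, n = 6) in control mice. Cat held 33.2% ± 3.38 (SD, n = 6) of this sum in PZH mice and 22.6% ± 3.48 (SD, n = 6) in control mice. Prdx1 held 16.1% ± 2.78 (SD, n = 6) and 23.2% ± 1.93 (SD, n = 6) of it, respectively.

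**Figure D1:**
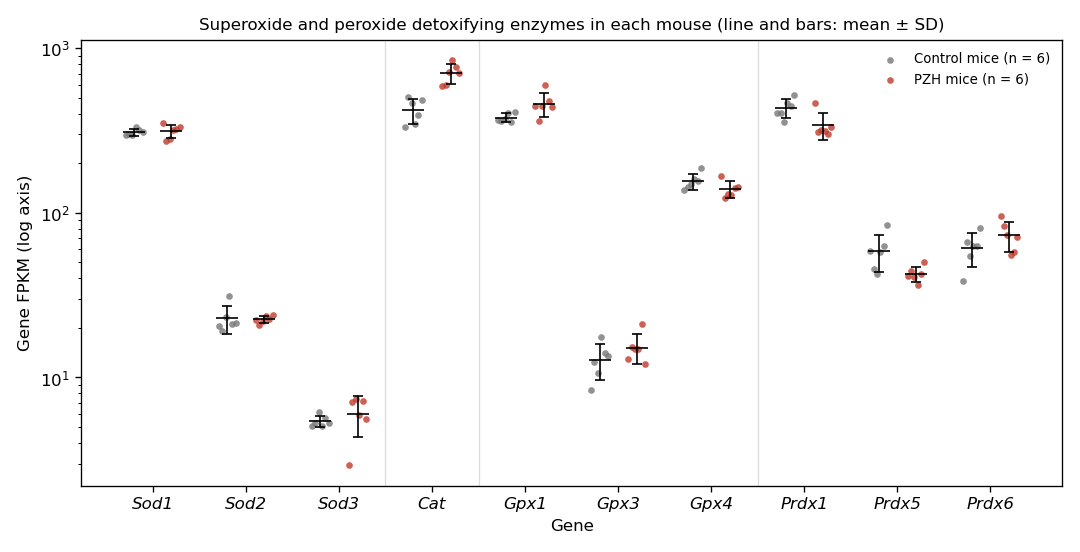
Gene FPKM of the 10 members in each mouse on a log axis, grouped as superoxide dismutases, catalase, glutathione peroxidases and peroxiredoxins, with gray points for the control group, red points for the PZH group, and black lines and bars for mean ± SD (n = 6). Cat lies between 592 and 847 in PZH mice and between 331 and 504 in control mice, and PZH 1 is the highest PZH mouse for Prdx1 (466) and the lowest of all mice for Sod3 (2.92).

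Sod1 encodes the copper and zinc superoxide dismutase of the cytosol (ENSMUSG00000022982, GRCm38 chr16:90220754-90226329, plus strand). Its FPKM was 275, 321 and 350 in the PZH group (lowest, median and highest) and 297, 306 and 331 in the control group. The control range lay inside the PZH range, with PZH 2 and PZH 3 below every control mouse and PZH 1 and PZH 6 above every control mouse. Sod1 had a log2 fold change of 0.02 (SE 0.07, 95% CI -0.13 to 0.17, adjusted p = 0.844), which turned to -0.02 when every mouse was scaled to the same sum and to -0.01 without PZH 1. It was 0.13 relative to the median of all genes and 0.21 (adjusted p = 0.0741) after median-ratio scaling.

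Sod2, the manganese enzyme of the mitochondrial matrix (ENSMUSG00000006818, GRCm38 chr17:13006846-13040063, plus strand), was expressed at a lower level. In the PZH group the FPKM was 20.8, 22.6 and 24.1, and in the control group it was 19.2, 21.3 and 31.4. The PZH mice lay close together, whereas Control 4 stood above all other mice. Means were 22.6 ± 1.15 (SD, n = 6) and 22.9 ± 4.39 (SD, n = 6). The log2 fold change was 0.00 (SE 0.10, 95% CI -0.22 to 0.22, adjusted p = 0.991). Its sign was not stable, since it was 0.19 (adjusted p = 0.182) after median-ratio scaling, -0.04 with equal sums, 0.09 without Control 4, and just below 0 without any of PZH 4, PZH 5, PZH 6, Control 1, Control 2, Control 5 or Control 6, the lowest being -0.04.

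Sod3 encodes the extracellular superoxide dismutase, which binds to matrix heparan sulfate (ENSMUSG00000072941, GRCm38 chr5:52363791-52371418, plus strand). It was the least abundant member, with an FPKM of 2.92, 6.49 and 7.37 in PZH mice and 5.05, 5.29 and 6.13 in control mice. PZH 1 was below every control mouse, and PZH 2, PZH 3 and PZH 5 were above every control mouse. The log2 fold change was 0.08 (SE 0.16, 95% CI -0.26 to 0.43, adjusted p = 0.696) with all mice. It was 0.24 (adjusted p = 0.0242) without PZH 1, so this gene was called only when that library was left out. Summed over the 3 dismutases, FPKM was 343 ± 29.0 (SD, n = 6) in PZH mice and 337 ± 17.2 (SD, n = 6) in control mice.

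Cat encodes catalase, the heme enzyme of peroxisomes that splits hydrogen peroxide into water and oxygen (ENSMUSG00000027187, GRCm38 chr2:103453849-103485160, minus strand). In the PZH group its FPKM was 592 in PZH 1, 595 in PZH 2, 710 in PZH 6, 715 in PZH 3, 775 in PZH 5 and 847 in PZH 4. In the control group it was 331 in Control 1, 346 in Control 4, 391 in Control 5, 467 in Control 3, 487 in Control 6 and 504 in Control 2. All 6 PZH mice were above all 6 control mice, and the nearest mice of the 2 groups were PZH 1 and Control 2. Cat rose by 0.75 on the log2 scale (SE 0.13, 95% CI 0.48 to 1.03, adjusted p = 0.000459), from a mean of 421 ± 74.7 (SD, n = 6) to 706 ± 99.8 (SD, n = 6). Relative to the median of all genes the rise was 0.86, and after median-ratio scaling it was 0.94 (adjusted p = 0.000148). When single mice were left out, the change was 0.69 to 0.81 and the adjusted p was 0.000431 to 0.0015. A single transcript of Cat was listed, with 13 exons and a coding sequence of 1581 bases.

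Of 10948 genes with a mean FPKM of at least 1, the profile nearest to that of Cat over the 12 mice was that of Shmt2, which encodes a mitochondrial enzyme of serine and glycine metabolism. Its root mean square difference from Cat was 0.0874 on the log2 scale after both genes were set to a mean of 0, where Cat itself had a root mean square of 0.432. Next came Stard5, a lipid transfer gene, at 0.0959. Shmt2 had a mean FPKM of 53.7 in PZH mice and 31.7 in control mice, and Stard5 had 31.8 and 19.3.

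Of 9 measured hepatocyte markers, 5 were higher and 0 were lower by limma, and 6 and 0 after median-ratio scaling. Pck1, named after its value was seen, had a negative log2 fold change and was not called (-0.63, adjusted p = 0.269). Their summed FPKM ranged from 43166 to 59828 in PZH mice and from 24718 to 38524 in control mice, without overlap, and most of the sum was Alb. No hepatocyte marker was listed at 0 in all mice. Alb rose by 0.68 on the log2 scale (SE 0.12, adjusted p = 0.000697), and Cyp2e1, which encodes the enzyme that activates CCl4 and was chosen after its value was seen, rose by 2.24 (SE 0.22, adjusted p = 1.7e-05). In liver tissue, a change in the share of hepatocytes and a change in RNA per hepatocyte cannot be told apart. The part of either in the values of Cat was not tested.

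Gpx1 encodes the abundant selenium-dependent glutathione peroxidase of cytosol and mitochondria (ENSMUSG00000063856, GRCm38 chr9:108338903-108340343, plus strand). Its FPKM was 360, 447 and 595 in PZH mice and 355, 370 and 413 in control mice. PZH 2 lay within the control range, the other 5 PZH mice were above every control mouse, and PZH 4 was the highest. Gpx1 rose by 0.27 on the log2 scale (SE 0.10, 95% CI 0.05 to 0.49, adjusted p = 0.0436). After median-ratio scaling the rise was 0.46 (adjusted p = 0.00671). The call on deposited values was close to the threshold, and it held without PZH 2, Control 4 or Control 6 but was lost when any of the other 9 mice was left out, with a log2 fold change of 0.19 (adjusted p = 0.08) without PZH 4 and 0.25 (adjusted p = 0.0856) without Control 5. It was also lost with equal sums (adjusted p = 0.0861), with a pseudocount of 0.1 (0.0647), with a mean-variance trend (0.0567) and without moderation (0.0572).

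Gpx1 had 2 listed transcripts, and the one with the longer coding sequence was called. Transcript ENSMUST00000082429, with a coding sequence of 603 bases, had a mean FPKM of 326 ± 68.5 (SD, n = 6) in PZH mice and 246 ± 17.7 (SD, n = 6) in control mice, a log2 fold change of 0.39 (adjusted p = 0.0375 over all transcripts). The shorter ENSMUST00000191997, with a coding sequence of 432 bases, had 135 ± 29.9 (SD, n = 6) and 133 ± 10.2 (SD, n = 6), a log2 fold change of -0.01 (95% CI -0.32 to 0.30), which became 0.18 after median-ratio scaling. Its FPKM was above every control mouse in PZH 3, PZH 5 and PZH 6, below every control mouse in PZH 1 and PZH 2, and within the control range in PZH 4. The share of Gpx1 FPKM held by the former was 70.6% ± 5.86 (SD, n = 6) in PZH mice and 64.9% ± 1.68 (SD, n = 6) in control mice. This difference of 5.69 percentage points did not pass the two-sided exact permutation test (exact p = 0.0606). PZH 1, PZH 2 and PZH 4 had shares of 74.6% to 76.7%, above all other mice, and PZH 3, PZH 5 and PZH 6 lay within the control range.

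Gpx3 encodes the secreted glutathione peroxidase of plasma, which comes mainly from the kidney (ENSMUSG00000018339, GRCm38 chr11:54902453-54910377, plus strand). The FPKM was 12.1, 14.9 and 21 in PZH mice and 8.36, 13 and 17.5 in control mice. The groups overlapped, with PZH 5 the highest and Control 1 the lowest of all mice. On deposited values the log2 fold change was 0.25 (SE 0.16, 95% CI -0.10 to 0.59, adjusted p = 0.229), and after median-ratio scaling Gpx3 was called higher, at 0.42 (adjusted p = 0.0302).

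Gpx4 encodes the glutathione peroxidase that reduces lipid hydroperoxides within membranes (ENSMUSG00000075706, GRCm38 chr10:80047166-80056439, plus strand). Its FPKM was 124, 136 and 168 in PZH mice and 139, 153 and 188 in control mice. Of the PZH mice, PZH 2, PZH 3 and PZH 4 were below all control mice, while PZH 1 was above all but Control 6. For Gpx4 the log2 fold change was -0.16 (SE 0.09, 95% CI -0.36 to 0.03, adjusted p = 0.164), and it turned to 0.03 after median-ratio scaling. It was -0.22 (adjusted p = 0.044) without PZH 1. Relative to the median of all genes it was -0.05, and relative to that of genes with a mean FPKM of at least 1 it was 0.0065.

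Among the 3 listed transcripts of Gpx4, ENSMUST00000097227 differed between mice of the same group. This transcript has the longest coding sequence of the 3, with 759 bases, and in Control 1, Control 3 and Control 6 its FPKM was 4.08, 4.52 and 3.29. In Control 2, Control 4 and Control 5 it was 0.266, 0.304 and 0.469, within or near the 0.242 to 0.393 of the PZH group. Control mice thus fell on either side of a wide gap, and no PZH mouse was in the higher set. The log2 fold change was -0.98 (SE 0.39, adjusted p = 0.105). The main transcript, ENSMUST00000105372, held 97.6% ± 0.33 (SD, n = 6) of Gpx4 FPKM in PZH mice and 96.6% ± 1.32 (SD, n = 6) in control mice (exact permutation p = 0.123). The third, ENSMUST00000183037, had a mean FPKM of 3.13 and 3.17, respectively. For the 3 glutathione peroxidases together, FPKM was 616 ± 78.1 (SD, n = 6) in PZH mice and 548 ± 41.4 (SD, n = 6) in control mice.

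Prdx1 encodes a cytosolic peroxiredoxin that is reduced by thioredoxin (ENSMUSG00000028691, GRCm38 chr4:116685544-116700822, plus strand). Its FPKM was 304, 317 and 466 in PZH mice and 356, 426 and 521 in control mice. PZH 1 lay inside the control range, and the other 5 PZH mice, at 304 to 333, were below every control mouse. Prdx1 fell by 0.35 on the log2 scale (SE 0.12, 95% CI -0.60 to -0.10, adjusted p = 0.0273), and it was -0.24 relative to the median of all genes and -0.18 relative to that of genes with a mean FPKM of at least 1. Without PZH 1 the log2 fold change was -0.44 (adjusted p = 0.00165). After median-ratio scaling it was -0.16 and was not called (adjusted p = 0.371). The call was also lost without any of PZH 2, PZH 3, PZH 4, PZH 5, Control 4, Control 5 or Control 6, with a log2 fold change of -0.29 (adjusted p = 0.0609) without Control 6 and adjusted p of 0.052 to 0.0567 without the others.

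Nearly all Prdx1 signal came from transcript ENSMUST00000135573, which held 97.9% ± 0.55 (SD, n = 6) of the gene in PZH mice and 97.6% ± 0.336 (SD, n = 6) in control mice (exact permutation p = 0.277). Of the 4 minor transcripts, ENSMUST00000106470, which has the same coding length of 597 bases and starts further downstream, was called lower (-0.62, SE 0.16, adjusted p = 0.0195, and -0.53 after median-ratio scaling, adjusted p = 0.0389). Its mean FPKM was 0.61 ± 0.12 (SD, n = 6) in PZH mice and 1.55 ± 0.655 (SD, n = 6) in control mice. Control 2, at 0.516, lay within the PZH range of 0.45 to 0.761, and the other control mice were above that range. The other minor transcripts, ENSMUST00000151129, ENSMUST00000030454 and ENSMUST00000129315, had means of 0.99 to 6.07 and were not called. Over the 20 member transcripts 3 were called, beside 19.7% of all transcripts. The main transcript of Prdx1, at -0.34, was not among them (adjusted p = 0.0649), although it was called when each gene was represented by its most abundant transcript and the adjustment ran over genes (adjusted p = 0.038).

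The nearest profile to that of Prdx1 was Rheb, a GTPase gene upstream of mTORC1, with a root mean square difference of 0.0413 where Prdx1 had 0.26. Psmb3, which encodes a proteasome subunit, followed at 0.0732. In both genes PZH 1 was far above the other PZH mice, at 17.2 FPKM for Rheb and 84.9 FPKM for Psmb3, as it was in Prdx1. Rheb (-0.33, adjusted p = 0.0307) and Psmb3 (-0.36, adjusted p = 0.0267) were called on deposited values but not after median-ratio scaling (-0.15 and -0.17). The call of Rheb was lost without any of PZH 2 to PZH 6, Control 4, Control 5 or Control 6 (adjusted p up to 0.0685), and that of Psmb3 without PZH 3, PZH 4, PZH 5 or Control 6 (up to 0.0596).

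Prdx5 encodes an atypical peroxiredoxin found in mitochondria, peroxisomes and cytosol (ENSMUSG00000024953, GRCm38 chr19:6906697-6910106, minus strand). Its FPKM was 36.7, 42.0 and 50.2 in PZH mice and 42.8, 58.4 and 84.0 in control mice. Control 2 and Control 3 lay in the range of the PZH mice, and the other 4 control mice were above all of them, with Control 6 the highest. Prdx5 fell by 0.42 on the log2 scale (SE 0.14, 95% CI -0.73 to -0.12, adjusted p = 0.0276), and it was -0.31 relative to the median of all genes and -0.25 relative to that of genes with a mean FPKM of at least 1. After median-ratio scaling it was -0.23 and was not called (adjusted p = 0.198). Without PZH 4 it was -0.38 (adjusted p = 0.0617), without Control 5 it was -0.39 (adjusted p = 0.058), and its most abundant transcript alone gave -0.44 (adjusted p = 0.0682).

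The transcript makeup of Prdx5 was the most variable of the members. ENSMUST00000025904 held 74.0% ± 20.3 (SD, n = 6) of the gene in PZH mice and 73.2% ± 14.1 (SD, n = 6) in control mice (exact permutation p = 0.939). In PZH 6 it held 35.2% and in Control 6 it held 49.3%, against 64.2% to 91.7% in the other mice. The second transcript, ENSMUST00000149261, reached an FPKM of 31.7 in PZH 6 and 41.7 in Control 6. These same mice were the only ones in which ENSMUST00000173091 was not listed at 0, with an FPKM of 0.778 and 0.882. Both mice carry the number 6, 1 from each group.

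The profile of Prdx5 had no close neighbor, since the nearest gene, Asb6, differed by 0.133 where Prdx5 had 0.321. Tsacc was next at 0.148. Both are genes of low level, with Asb6 at a mean FPKM of 0.963 and 1.78 and Tsacc at 1.09 and 1.51 in the PZH and control groups. Tsacc was not called on all mice (-0.25, adjusted p = 0.0963) and was called without Control 3 (-0.33, adjusted p = 0.0282).

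Prdx6 encodes the peroxiredoxin that uses a single catalytic cysteine and glutathione, and also acts on phospholipids (ENSMUSG00000026701, GRCm38 chr1:161240112-161251219, minus strand). Its FPKM was 55.7, 72.6 and 95.9 in PZH mice and 38.4, 63.0 and 80.6 in control mice. PZH 1 and PZH 2 were above all control mice, and Control 1 was the lowest of all mice. The log2 fold change was 0.26 (SE 0.17, 95% CI -0.11 to 0.63, adjusted p = 0.237) and after median-ratio scaling 0.45 (adjusted p = 0.0506). Its main transcript, ENSMUST00000071718, held 95.7% ± 3.15 (SD, n = 6) and 95.2% ± 2.76 (SD, n = 6) of the gene (exact permutation p = 0.584), and the share was lowest in PZH 4 (89.3%) and Control 1 (89.7%). The other, ENSMUST00000051925, had a mean FPKM of 2.98 and 2.71. Summed over the 3 peroxiredoxins, FPKM was 457 ± 74.3 (SD, n = 6) in PZH mice and 552 ± 80.7 (SD, n = 6) in control mice. Mice have processed pseudogenes related to several of these genes, and how reads shared with such copies were counted is not given in the sources used here.

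Promoter sequences from RefSeq (GRCm38.p6), covering 250 bases before and 50 bases after the start of transcription, were found for 8 of the 10 members, with 11 sequences in all, and not for Sod3 and Prdx6. Both strands were searched for 4 motifs. The core of the antioxidant response element, TGACNNNGC, bound by Nrf2 with small Maf proteins, was in Prdx1 and Sod1, and in 12.4% of 32851 promoters of the same length. The GC box GGGCGG was in all 8 genes, except in the most upstream of the Gpx4 sequences, and in 35.7% of promoters. CCAAT was in 5 genes and 37.4% of promoters, with 4 matches in Cat, and TATAAA was in Prdx1 and Sod1 and in 13.6%. The stretches that no annotated exon covers are printed for Cat, the member whose groups did not overlap, and for Prdx1 and Sod1, which have the antioxidant response element core. They lie at chr2:103485161-103485403 on the minus strand, chr4:116685349-116685543 on the plus strand and chr16:90220512-90220753 on the plus strand, in lower case and 5′ to 3′, with matches to any of the 4 motifs on either strand in capitals.
Cat: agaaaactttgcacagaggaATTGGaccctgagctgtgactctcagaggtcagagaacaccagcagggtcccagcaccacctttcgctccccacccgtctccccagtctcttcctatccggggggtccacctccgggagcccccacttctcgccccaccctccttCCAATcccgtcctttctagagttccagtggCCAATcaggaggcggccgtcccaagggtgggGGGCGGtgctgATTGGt
Prdx1: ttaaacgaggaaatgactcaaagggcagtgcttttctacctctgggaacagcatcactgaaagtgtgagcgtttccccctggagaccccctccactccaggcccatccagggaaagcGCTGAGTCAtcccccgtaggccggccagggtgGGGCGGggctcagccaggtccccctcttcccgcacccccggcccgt
Sod1: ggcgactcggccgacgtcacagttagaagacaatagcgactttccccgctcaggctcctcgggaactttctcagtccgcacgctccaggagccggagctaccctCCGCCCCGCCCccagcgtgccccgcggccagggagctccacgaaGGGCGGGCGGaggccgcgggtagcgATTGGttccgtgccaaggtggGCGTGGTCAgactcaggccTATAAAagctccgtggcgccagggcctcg
In Prdx1 the antioxidant response element core begins at position -133 and in Sod1 at -56, counted from the start of transcription. Neighboring GC boxes of Sod1 share bases with each other. A match is only a description of the letters.

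Fold changes larger than those of the members were found among genes of the reducing systems that serve them. The counts of each list stand beside 12.7% higher and 32.1% lower of all genes, and beside 19.8% and 19.3% after median-ratio scaling. Among the other peroxiredoxins and glutathione peroxidases, 1 of 7 measured genes was higher and 0 were lower by limma, and 2 and 0 after median-ratio scaling. The gene higher on deposited values was Prdx4, the peroxiredoxin of the endoplasmic reticulum, which rose by 0.46 (SE 0.10, adjusted p = 0.00309) from a mean FPKM of 46.9 to 65.6. Prdx3, the mitochondrial peroxiredoxin and the most abundant of the list, was at 0.10 (95% CI -0.20 to 0.40), at -0.03 without PZH 1 and at 0.29 after median-ratio scaling.

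In the thioredoxin system that reduces peroxiredoxins, 3 of 10 genes were higher and 6 were lower. Srxn1, the sulfiredoxin that repairs overoxidized peroxiredoxins, fell by 1.71 on the log2 scale (SE 0.21, adjusted p = 5.8e-05), from a mean FPKM of 100 to 30.1. Txnrd1, the cytosolic thioredoxin reductase, fell by 1.29 (SE 0.20, adjusted p = 0.000246), and Sesn2 fell by 0.94 (SE 0.11, adjusted p = 4.8e-05). The groups did not overlap in any of these 3 genes. Txnip, whose product binds thioredoxin, rose by 0.74 (SE 0.15, adjusted p = 0.00119). Txn1, thioredoxin itself and the most abundant gene of the list, fell by 0.35 (adjusted p = 0.0132), a call lost after median-ratio scaling (-0.16, adjusted p = 0.275). After that scaling 3 genes were higher and 3 lower.

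Of 12 genes of glutathione synthesis and reduction, 1 was higher and 5 were lower, and 2 and 5 after median-ratio scaling. Slc7a11, the cystine importer, fell by 2.26 (SE 0.26, adjusted p = 3.9e-05), from a mean FPKM of 14.6 to 2.37. Gclc, the catalytic subunit of the limiting step of glutathione synthesis and the most abundant gene of the list, fell by 1.90 (SE 0.21, adjusted p = 3.6e-05), from 296 to 75.4. Gsr, glutathione reductase, fell by 0.96 (SE 0.09, adjusted p = 1.7e-05). Chac1, which degrades glutathione, fell by 1.35 (SE 0.27, adjusted p = 0.00139). Chac2, a related gene chosen after its value was seen, was the gene that rose on deposited values, by 0.87. Gclm, also chosen after its value was seen, was at 0.37 (adjusted p = 0.158) and was called higher after median-ratio scaling (0.55, adjusted p = 0.0434).

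The list of NADPH supply had 10 symbols and 11 genes, since Nnt stood in the annotation under 2 gene identifiers. Of these 11, 3 were higher and 2 were lower, and 5 and 2 after median-ratio scaling. The 2 genes of the oxidative pentose phosphate pathway that were called fell, Pgd by 0.67 (SE 0.11, adjusted p = 0.000325) and G6pdx by 0.54 (SE 0.10, adjusted p = 0.000607). Mthfd1 of folate metabolism rose by 0.98 (SE 0.12, adjusted p = 7.2e-05). Idh1, the cytosolic isocitrate dehydrogenase and the most abundant of the list, rose by 0.49 (SE 0.14, adjusted p = 0.0114).

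Genes that supply or transport the metals and selenium of the enzymes moved both ways, with 4 of 14 higher and 5 lower, and 4 and 3 after median-ratio scaling. Ccs, the copper chaperone of SOD1, rose by 0.90 (SE 0.13, adjusted p = 0.000152), from a mean FPKM of 19.9 to 38.1, without overlap, whereas Sod1 did not pass the test. Sephs2, which makes selenophosphate for selenoproteins such as GPX1, GPX3 and GPX4, rose by 1.27 (SE 0.14, adjusted p = 3.4e-05), from 115 to 276. Selenop, the selenium carrier of plasma and the most abundant of the list, rose by 0.27 (SE 0.06, adjusted p = 0.00398). The manganese importer Slc39a14 (-0.75, adjusted p = 0.0117) and the manganese exporter Slc30a10 (-0.56, adjusted p = 0.00236) both fell. Sod2, which needs manganese, was at 0.00.

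**Figure D2:**
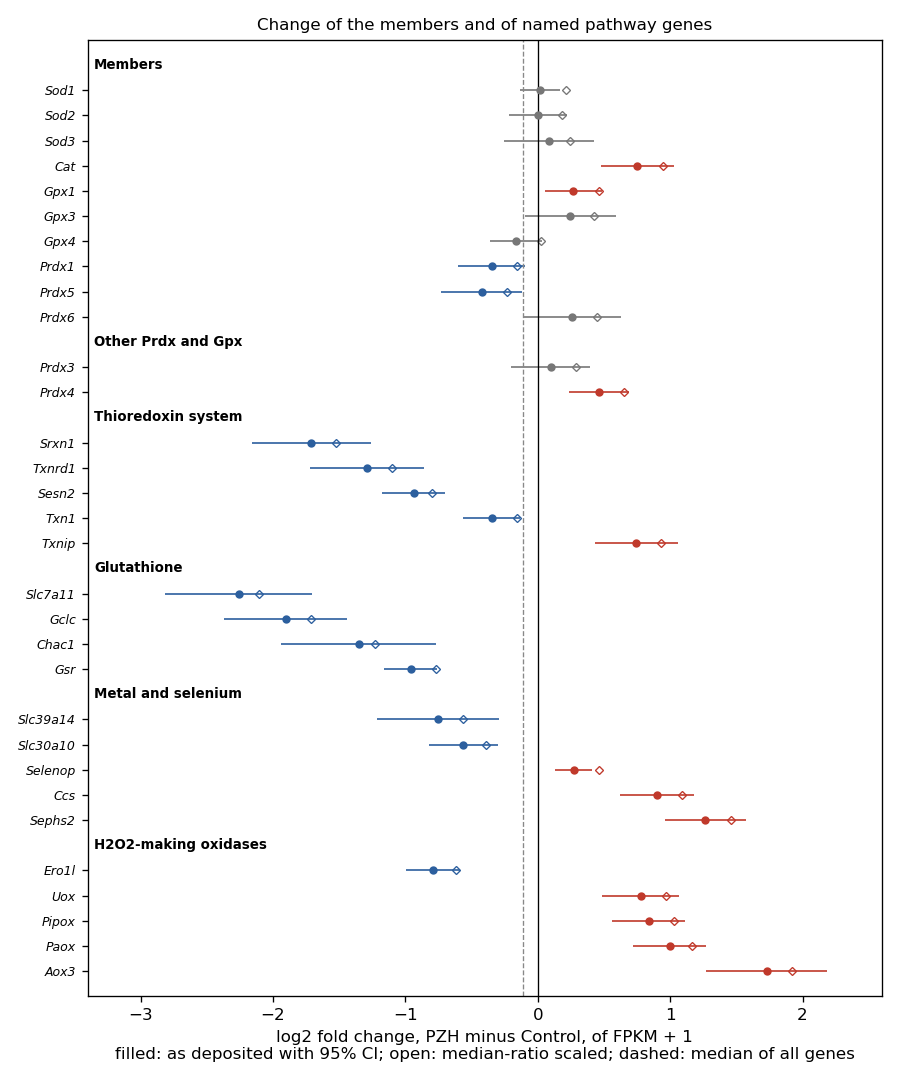
Log2 fold change of FPKM + 1, PZH group minus control group, for the 10 members and for named genes of 5 pathway lists. Filled circles with bars are deposited values with their 95% CI (red higher, blue lower, gray not called), open diamonds are values after median-ratio scaling, and the dashed line is the median of all genes (-0.11). Cat is at 0.75, and Slc7a11 (-2.26), Gclc (-1.90) and Srxn1 (-1.71) are the lowest, while Gpx4 changes sign with the scaling (-0.16 and 0.03).

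Sources of superoxide and hydrogen peroxide were looked at in the same way. Among the NADPH oxidase subunits 1 of 8 measured genes was higher and 3 were lower, and 1 and 2 after median-ratio scaling. Nox4, which releases hydrogen peroxide, rose by 0.66 (SE 0.16, adjusted p = 0.00487). The phagocyte subunits Rac2 (-0.62, adjusted p = 0.00233), Ncf4 (-0.46, adjusted p = 0.0142) and Cyba (-0.43, adjusted p = 0.014) fell, though Ncf4 was not called from its most abundant transcript (-0.39, adjusted p = 0.063) and Cyba was not called after median-ratio scaling (-0.25, adjusted p = 0.073). Rac1, the most abundant, was at -0.81 (95% CI -2.02 to 0.40).

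Of 16 oxidases that make hydrogen peroxide, 9 were higher and 4 were lower, and 11 and 1 after median-ratio scaling. The rises included Aox3, an aldehyde oxidase of liver, by 1.73 (SE 0.21, adjusted p = 6.1e-05), Paox by 0.998 (SE 0.13) and Pipox by 0.84 (SE 0.13). Uox, the urate oxidase of peroxisomes and the most abundant of the list, rose by 0.78 (SE 0.14, adjusted p = 0.000564), from a mean FPKM of 345 to 592. Ero1l of the endoplasmic reticulum fell by 0.79 (SE 0.09, adjusted p = 4.9e-05). Uox, Paox and Pipox share the peroxisome with catalase.

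Of 13 genes of peroxisomal import, 3 were higher and 1 was lower, and 5 and 1 after median-ratio scaling. Pex7, the receptor for a second kind of targeting signal, rose by 0.33 (SE 0.10, adjusted p = 0.0197), and Pex6 fell by 0.40 (SE 0.10, adjusted p = 0.00566). The call of Pex13 (0.21, adjusted p = 0.0381) was less stable, and it was lost without PZH 4, PZH 6 or any of Control 1 to Control 5 (adjusted p up to 0.079). With all mice the call was kept in only 6 of 8 alternative settings (adjusted p up to 0.0817). Pex19, the most abundant, was at 0.15 (95% CI -0.16 to 0.46). The median log2 fold change of the list was 0.04, beside -0.11 for all genes.

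In the list of Nrf2 regulation and targets, which shares 6 genes with the lists above, 1 of 15 genes was higher and 9 were lower, with a median log2 fold change of -0.54. Sqstm1, which encodes p62, fell by 1.42 (SE 0.13, adjusted p = 1.6e-05), from a mean FPKM of 366 to 133. Gstm1, the most abundant, rose by 0.84 (SE 0.17, adjusted p = 0.00149). After median-ratio scaling 4 genes of this list were higher and 8 lower.

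Markers of other liver cells were compared in the same way, and none of these markers was listed at 0 in all mice. Here too, a change in the share of a cell type and a change in RNA per cell cannot be told apart. Of Kupffer cell markers 2 of 7 were higher and 1 was lower (5 and 1 after median-ratio scaling), with a summed FPKM of 234 ± 32.9 (SD, n = 6) in PZH mice and 225 ± 28.0 (SD, n = 6) in control mice. Cd5l, the most abundant, was at 0.07, at -0.02 without PZH 3, and called higher after median-ratio scaling (0.26, adjusted p = 0.0475). Marco, named after its value was seen, fell by 2.21 (SE 0.40, adjusted p = 0.000702). The 2 Kupffer cell markers called higher were Clec4f (0.60, adjusted p = 0.0251) and Vsig4 (0.57, adjusted p = 0.0029). They were also named after their values were seen, and the groups did not overlap in Marco, Clec4f or Vsig4. Of 10 markers of monocytes and macrophages 3 were higher and 3 lower (3 and 0 after median-ratio scaling), with Lyz2 the most abundant (0.29, 95% CI -0.12 to 0.71). Of neutrophil markers 0 of 8 were higher and 2 were lower by limma, as after median-ratio scaling, and the most abundant, S100a8, was at -0.31 with all mice and was called lower without PZH 3 (-0.89, adjusted p = 0.0492). The mean FPKM of S100a8 was 17.8 in PZH mice, with PZH 3 at 76.0, and 13.6 in control mice. The 8 neutrophil markers summed to an FPKM of 39.6 ± 51.2 (SD, n = 6) in PZH mice, with PZH 3 at 144, and 34.2 ± 16.3 (SD, n = 6) in control mice. Of lymphocyte markers 0 of 8 were called by limma (1 higher after median-ratio scaling). The most abundant, Cd79a, had a mean FPKM of only 0.869 in PZH mice and 1.02 in control mice. Fold changes of FPKM + 1 are compressed at such low levels, so a difference in these markers could be missed.

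Stellate cell and myofibroblast markers, the cells that form scar, went both ways, with 3 of 11 higher and 3 lower, and 6 and 3 after median-ratio scaling. Their summed FPKM was 404 ± 35.5 (SD, n = 6) in PZH mice and 348 ± 54.2 (SD, n = 6) in control mice, and Dcn was the most abundant (0.12, -0.02 for its most abundant transcript alone, and called higher at 0.31 after median-ratio scaling, adjusted p = 0.0394). Of 9 endothelial markers 0 were higher and 2 lower by limma (2 and 1 after median-ratio scaling), and Clec4g, the most abundant, was at -0.02, and at 0.16 after median-ratio scaling. Of 5 cholangiocyte markers 1 was lower (1 higher and 1 lower after median-ratio scaling), and Spp1, also a macrophage marker, was at -0.39 (95% CI -0.80 to 0.02), and at 0.13 for its most abundant transcript alone. Of 7 erythroid markers 1 was higher, and Hbb-bs was at -0.25 (95% CI -0.69 to 0.18), at -0.06 after median-ratio scaling and at -0.40 to -0.13 when single mice were left out. Red cells are rich in catalase, SOD1 and peroxiredoxin 2, and the summed erythroid FPKM was 826 ± 260 (SD, n = 6) in PZH mice and 931 ± 141 (SD, n = 6) in control mice. Of 5 smooth muscle markers 1 was higher, Mylk (0.37, adjusted p = 0.0225, and 0.0649 with equal sums). Where 0 genes of a list were called in a direction by limma on deposited values, the count at an unadjusted P under 0.05 was also 0. The part of these cell types in the values of the enzymes was not tested.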

How the data were processed

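Liver RNA of 12 mice, 6 per group, was depleted of ribosomal RNA and sequenced as strand-specific libraries. Trimming by the authors was done with Trimmomatic, alignment to GRCm38 with HISAT2 and assembly with StringTie, which gave the deposited FPKM of each transcript in each mouse. The table of protein-coding RNAs was used, and the lncRNA table was not used here. Mice were assigned by the group and number in the column names. Of 29883 transcripts, 7 were not matched to a gene of GENCODE M21. Depth was estimated from the steps between low FPKM values (with Control 4 the least certain), and 0.973% to 1.59% of low values lay within 0.05% of a whole multiple. Within 0.05 of a whole fragment lay 10.5% to 11.8%, where evenly spread values would give 9.09%, so counts were not recovered and no count test was run.

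Gene FPKM was the sum over transcripts. Values of log2(FPKM + 1), with no filter on low values, were compared with limma 3.58.1 in R 4.3.3, with Benjamini-Hochberg adjustment over all genes or all transcripts and a threshold of 0.05. A fold change on this scale understates the change of genes with low values. The fit was tested on simulated data. Shares of the leading transcript were compared for 5 genes by two-sided exact permutation over 924 labellings, with p-values not adjusted. The settings tried beside these were a filter at a mean FPKM of 1, a pseudocount of 0.1, median-ratio scaling, equal sums, no moderation, a mean-variance trend, a replicate block, the most abundant transcript, and each mouse left out. A value was outlying when its gap to the nearest mouse exceeded 0.625 of the range of its group. Python 3.11.15, pandas 2.3.3, numpy 2.4.6 and matplotlib 3.10.9 were also used.

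The named genes were the 10 members, those of their transcripts that were called or reached a mean FPKM of 1, up to 4 called genes of largest change and the most abundant gene of each pathway list, the most abundant gene of each marker list, and the 2 genes nearest in profile to each of the 3 members of largest change. Of the genes that this rule gave, 1 is left out of the text. Other genes were named after their values were seen. The members and lists were chosen with earlier results of these data known.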

Additional observations from a re-analysis of the deposited data

Results flagged for a closer look

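Of 154 groups of 6 values, 21 had a mouse whose gap to the others exceeded 0.625 of the range, where chance flags about 1 in 20 groups and 9.14% of the groups of all genes with a mean FPKM of at least 1 were flagged. PZH 1 was that mouse in 9 of them and Control 6 in 4. These are not separate observations, since the 9 include Prdx1, its main transcript, and Rheb and Psmb3, which were named because their profiles are near that of Prdx1. PZH 1 also had the highest estimated depth, and the part of depth in its values was not tested.

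PZH 1 was far above the other PZH mice in FPKM for Prdx1 (466, others 304 to 333) and its main transcript (457), and for Prdx3 (114), Prdx4 (89.0), Txn1 (141), Idh1 (120), Pex13 (16.3), Rheb (17.2) and Psmb3 (84.9). Without PZH 1 the log2 fold change of Prdx1 was -0.44 in place of -0.35.

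Control 6 was far above the other control mice in FPKM for Srxn1 (164, others 80.1 to 98.0), Pgd (68.1), Pex7 (8.42) and Psmb3 (98.7). Control 4 was far above them for Sod2 (31.4, others 19.2 to 23.4) and S100a8 (30.6), and Control 5 for Cd79a (1.62).

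In the PZH group, PZH 3 was far above the others in FPKM for S100a8 (76.0, others 3.76 to 8.10) and Cd5l (103). PZH 5 was the high mouse for Gpx3 (21, others 12.1 to 15.3), PZH 2 for Gsr (29.9) and PZH 6 for the second transcript of Prdx5 (31.7, others 3.68 to 11.5).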

How the results depend on the processing

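Under the 8 alternatives with all mice, Cat stayed called (log2 fold change 0.71 to 0.94), Sod3 (0.05 to 0.24) and Prdx6 (0.22 to 0.45) kept their direction and were not called, Sod1 and Sod2 reached 0.21 and 0.19 without a call, and the calls that changed are given here. Median-ratio scaling gave 2807 genes higher and 2739 lower, in place of 1798 and 4560, with 0 members called lower by limma. Under it Prdx1 was -0.16, Prdx5 -0.23, Gpx3 0.42 (called) and Gpx4 0.0281, a turned sign. Equal sums gave 1 member called higher, Gpx1 0.23 (not called), and turned Sod1 (-0.0232) and Sod2 (-0.0394). A pseudocount of 0.1 gave 1317 genes past 2-fold in place of 570, 1 member higher and Gpx1 0.27 (not called). No moderation and a mean-variance trend each gave 1 member higher, with Gpx1 0.27 (not called). The most abundant transcript gave 1 member lower, with Prdx5 -0.44 (not called). The causes were not tested.

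With each mouse left out in turn, members called higher were 1 to 2 and members called lower 0 to 3, with 1 higher and 0 lower without PZH 4 or without Control 5, while genes called higher were 1529 to 1891 and genes called lower 3989 to 4624. The log2 fold change ranged from -0.0128 to 0.0567 for Sod1, -0.0425 to 0.0934 for Sod2, 0.0241 to 0.24 for Sod3, 0.69 to 0.81 for Cat, 0.19 to 0.34 for Gpx1, 0.14 to 0.34 for Gpx3, -0.22 to -0.11 for Gpx4, -0.44 to -0.29 for Prdx1, -0.50 to -0.31 for Prdx5 and 0.14 to 0.35 for Prdx6. The share of the leading transcript differed by -4.02 to 8.50 percentage points for Prdx5 and -0.584 to 1.77 for Prdx6. For 53 other named genes, 47 of the lists and 6 nearest in profile to a member, 1015 of 1059 values kept direction and call, 32 lost the call and 4 gained it, and 8 turned sign. The turned values were Cd5l -0.0181 without PZH 3 (up to 0.112 without other mice), Prdx3 -0.0251 without PZH 1 (up to 0.154), Dcn -0.0193 and Spp1 0.13 for the most abundant transcript, and Clec4g 0.16 after median-ratio scaling, 0.048 without PZH 2, 0.0123 without Control 1 and 0.0053 without Control 5 (down to -0.0766 without other mice).

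With the mouse number as a replicate block, 1694 genes were higher and 4288 lower, and adjusted p was 0.00386 for Cat, 0.0386 for Gpx1, 0.0445 for Prdx1 and 0.0187 for Prdx5, so no call of a member changed. The labels give no link between mice of the same number other than that number. Correlations between their deviations were -0.078 to 0.093, and for 0 of 6 numbers was the mouse of the same number the best match. PZH 6 and Control 6 did share the unusual transcript makeup of Prdx5 given above.

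FPKM held no counts, so no counting error is given, and short transcripts of low FPKM, such as the minor transcripts of Gpx4 and Prdx1, rest on few fragments. A single comparison of CCl4-treated mice was made, with no healthy liver, and the protein measurements of the study were not used here.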
